A study of Mus musculus with 24 samples.

Results

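BAF chromatin remodelling complexes use energy from ATP to move and evict nucleosomes, and several of their positions can be filled by one of a few related proteins. In the mouse, neural progenitors carry Actl6a and Phf10 or Dpf2, and postmitotic neurons exchange them for Actl6b, Dpf1 or Dpf3 and Ss18l1. The Smarcd position is filled by Smarcd1, Smarcd2 or Smarcd3, and Smarcd3 is known as the variant of heart and skeletal muscle, where it works with the myogenic factor MyoD. The genes described here are these 10 subunit variants, out of 18193 genes measured. They were chosen by symbol: every probe set that the probe annotation gave to one of the 10 symbols was taken, which gave 20 probe sets of 45101 on the array. Of the 10 genes, 8 had several probe sets and 2, Smarcd3 and Actl6b, had 1.

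The series compared MyoD, which drives muscle differentiation, with NeuroD2, a related basic helix-loop-helix factor that drives neuronal differentiation, after lentiviral delivery into 2 kinds of mouse cell. P19 is a line of pluripotent embryonal carcinoma cells. The mouse embryonic fibroblasts (MEFs) came from Myod-/-/Myf5-/- mice, so every MEF group, the controls included, lacked both of these myogenic genes. RNA was read on 24 Affymetrix arrays, 3 per group, in 8 groups spread over 3 batches named in the sample titles. Batch 1 held P19 cells with MyoD, MEFs with MyoD, and untransduced P19 cells and untransduced MEFs as controls. Batch 2 held MEFs with NeuroD2 and untransduced MEFs, and batch 3 held P19 cells with NeuroD2 and untransduced P19 cells. Transduced cells were infected in medium with 8 µg/ml polybrene and received fresh medium after 24 hours. P19 cells were collected 72 hours after infection. MEFs with MyoD were moved at 48 hours to a differentiation medium of low horse serum with insulin and transferrin and were collected 36 to 40 hours after that move. The time at which MEFs with NeuroD2 were collected is not given by the labels. The controls were untransduced, so the lentivirus, the polybrene and the transgene came together in each comparison, and in MEFs with MyoD the differentiation medium came with them. One label field describes the cells with MyoD as neuronally differentiated, and groups were therefore read from the titles and source names. The labels do not say whether the 3 samples of a group were separate cultures, so p-values measure the spread between these samples, which may be technical.

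The values are log2 signal intensities, so a difference of 1 is a doubling of signal. A gene was read from its probe set with the highest mean signal, and levels are compared only within a probe set. A gene is written as raised, lowered, higher or lower in a group only where limma, fitted to all genes and arrays, gave a Benjamini-Hochberg adjusted p under 0.05. One array stood apart, the second replicate of the P19 controls of batch 1. Its lower and upper quartiles were 4.79 and 7.63, against 4.47 to 4.58 and 8.23 to 8.39 on the other 23 arrays, its signal for the BioB hybridization control was 6.71 against 7.76 to 8.27, and its mean correlation with its own group was 0.919 against 0.957 to 0.998. Values without it are given beside the results that it moved most, and they come from a fit of the other 23 arrays. Because the arrays read bulk RNA, fewer cells of a type and less RNA per cell cannot be told apart.

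Cell identity was checked with marker lists. Skeletal muscle markers were higher in MEFs with MyoD for 7 of 7 genes and in P19 cells with MyoD for 6 of 7. Their summed level, as a mean over the 7 genes, was 12.98 to 13.04 in MEFs with MyoD against 5.30 to 5.47 in their controls, and 9.01 to 9.07 in P19 cells with MyoD against 7.04 to 7.11 in theirs. Neuronal markers were higher in P19 cells with NeuroD2 for 8 of 8 genes, at a mean of 10.00 to 10.70 against 7.18 to 7.70 in their controls, and for 1 of 8 in MEFs with NeuroD2, at 5.51 to 5.61 against 5.12 to 5.24. Fibroblast markers were lower in MEFs with MyoD for 6 of 7 genes (10.34 to 10.52 against 12.39 to 12.59 in controls). None of the 6 pluripotency markers was called in P19 cells with either factor, at a mean of 10.60 to 10.67 with MyoD against 10.18 to 10.92 in controls and 10.91 to 11.10 with NeuroD2 against 11.03 to 11.16 in controls. What part these cell type markers had in the results for the subunits was not tested. Glial markers were higher for 2 of 5 genes in P19 cells with NeuroD2, and cardiac markers for 1 of 5 in MEFs with MyoD. The P19 cells with NeuroD2 also had 1 of 7 skeletal muscle markers higher and 2 of 7 fibroblast markers lower. Those with MyoD had 1 of 8 neuronal and 1 of 5 glial markers higher and 1 of 7 fibroblast markers lower, and when the fit left out the array that stood apart, 5 of 7 muscle and 0 of 8 neuronal markers were higher there. Myod1 itself was raised by 3.94 in P19 cells and by 5.55 in MEFs given MyoD (limma, adjusted p = 1.72e-14 and 1.86e-18). Neurod2 was raised in P19 cells with NeuroD2 on 1 of its 3 probe sets, by 1.70 (limma, adjusted p = 1.85e-06), and on none of the 3 in MEFs with NeuroD2, so the arrays give no check of the transgene in those MEFs.

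MyoD and NeuroD2 both bind DNA at E-boxes, the letters CANNTG. The 2 middle letters differ between the factors: MyoD is known to favour CAGCTG and CAGGTG, and NeuroD2 CAGCTG and CAGATG. The promoters of the 4 members whose signals moved most with a factor are printed to show the E-boxes that lie close to their annotated starts. They are RefSeq sequences of build GRCm38.p6, from 250 bases before to 50 bases after the start of the gene, written 5′ to 3′ along the strand of the gene, with every E-box in capitals. Smarcd3 lies at chr5:24601953-24602252 on the minus strand, Actl6b at chr5:137553296-137553595 on the plus strand, Smarcd2 at chr11:106267583-106267882 on the minus strand and Phf10 at chr17:14961211-14961510 on the minus strand.
Smarcd3: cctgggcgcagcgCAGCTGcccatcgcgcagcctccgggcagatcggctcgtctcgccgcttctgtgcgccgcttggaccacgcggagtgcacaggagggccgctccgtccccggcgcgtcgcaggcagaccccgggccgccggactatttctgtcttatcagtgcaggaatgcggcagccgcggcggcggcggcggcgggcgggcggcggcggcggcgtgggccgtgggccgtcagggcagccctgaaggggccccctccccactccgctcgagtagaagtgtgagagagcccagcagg
Actl6b: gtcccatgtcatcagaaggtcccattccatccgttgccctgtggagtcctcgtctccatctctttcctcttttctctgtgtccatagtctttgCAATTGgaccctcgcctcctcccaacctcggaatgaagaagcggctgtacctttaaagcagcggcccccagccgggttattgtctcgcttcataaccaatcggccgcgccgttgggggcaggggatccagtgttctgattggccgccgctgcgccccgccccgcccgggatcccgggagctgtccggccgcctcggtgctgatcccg
Smarcd2: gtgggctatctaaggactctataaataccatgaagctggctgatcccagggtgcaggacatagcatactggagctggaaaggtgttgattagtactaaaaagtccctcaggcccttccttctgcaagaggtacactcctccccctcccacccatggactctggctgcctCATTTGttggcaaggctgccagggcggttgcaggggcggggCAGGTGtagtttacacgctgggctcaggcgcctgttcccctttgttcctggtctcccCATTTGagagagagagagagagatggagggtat
Phf10: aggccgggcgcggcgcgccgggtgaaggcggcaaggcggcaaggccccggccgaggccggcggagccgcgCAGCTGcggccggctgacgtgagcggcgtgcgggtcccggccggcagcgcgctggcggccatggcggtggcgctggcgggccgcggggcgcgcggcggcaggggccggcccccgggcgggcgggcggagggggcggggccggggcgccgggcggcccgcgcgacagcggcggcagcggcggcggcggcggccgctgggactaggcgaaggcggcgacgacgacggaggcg

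Smarcd3 and Phf10 each had 1 E-box in this window, and both were CAGCTG, at -237 and -180 from the start. Actl6b had 1 as well, CAATTG at -157, which is the preferred form of neither factor. Smarcd2 had 3, CAGGTG at -40 and CATTTG at -81 and 17. Among all 10 members, 7 had any E-box in the window, against 72.3% of 32851 RefSeq mouse promoters of the same length. CAGCTG was in 3 of 10 (Smarcd3, Phf10 and Smarcd1), against 16.3% of all promoters, CAGGTG in 1 of 10 against 20.2%, and CAGATG in 0 of 10 against 17.2%. Each motif was searched on both strands, and each of the 3 specific forms is also counted as an E-box. A match describes the letters of the window and is not evidence that a factor binds there.

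Smarcd3, the muscle variant, was raised by MyoD in both cell types. Its signal, from its single probe set 1418467_at, was 10.01, 9.88 and 9.82 in P19 cells with MyoD, against 6.51, 6.74 and 6.43 in the P19 controls of the same batch. In MEFs with MyoD it was 11.15, 10.98 and 10.94, against 8.74, 8.78 and 8.68 in the MEF controls. All 3 transduced arrays lay above all 3 controls in each cell type, by far more than the spread within any group. The rise was 3.34 ± 0.155 in P19 cells (SE, n = 3 per group), or 10.1-fold, with a limma adjusted p of 1.02e-11. Without the array that stood apart it was 3.43, with a limma adjusted p of 1.23e-11. In MEFs the rise was 2.29 ± 0.155, or 4.89-fold, with a limma adjusted p of 1.91e-10. It was 1.05 smaller in MEFs than in P19 cells on the log2 scale, and this difference of effects passed the test too (-1.05, limma adjusted p = 0.0013, in a contrast that called 21.1% of all genes). MEFs began from a higher level: untransduced MEFs exceeded untransduced P19 cells of batch 1 by 2.17 (limma, adjusted p = 1.87e-10), and the 3 arrays of P19 cells with MyoD lay above those of untransduced MEFs.

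NeuroD2 moved Smarcd3 less. P19 cells with NeuroD2 had signals of 6.72, 6.68 and 7.02, against 5.55, 6.31 and 6.34 in the P19 controls of batch 3. The groups did not overlap, though the first control lay well below the other 2. The rise was 0.73 ± 0.155, or 1.66-fold (limma, adjusted p = 0.00329), and the call was lost when only the 6 arrays compared entered the fit (adjusted p = 0.11). MEFs with NeuroD2 had 9.18, 9.23 and 9.13, against 8.80, 8.86 and 8.80 in the MEF controls of batch 2. These groups did not overlap either, but the difference of 0.36 did not pass over all genes (limma, adjusted p = 0.173). MyoD raised Smarcd3 by 2.61 more than NeuroD2 did in P19 cells and by 1.93 more in MEFs (limma, adjusted p = 6.93e-08 and 9.33e-07), in contrasts that called 5.53% and 18.8% of all genes. These 2 contrasts set effects from different batches against each other, each taken against its own batch's controls.

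Ordered by mean, Smarcd3 ran from MEFs with MyoD (11.02 ± 0.11) through P19 cells with MyoD (9.90 ± 0.0943), MEFs with NeuroD2 (9.18 ± 0.0547), the MEF controls of batch 2 (8.82 ± 0.0327) and batch 1 (8.73 ± 0.0471), to P19 cells with NeuroD2 (6.80 ± 0.185) and the P19 controls of batch 1 (6.56 ± 0.162) and batch 3 (6.07 ± 0.445; all SD, n = 3). Among neighbours in this order, P19 cells with NeuroD2 and the P19 controls of batch 1 overlapped, and the other neighbours did not. The 2 MEF control groups, for which the test found no difference, were among those that did not overlap.

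**Figure D1:**
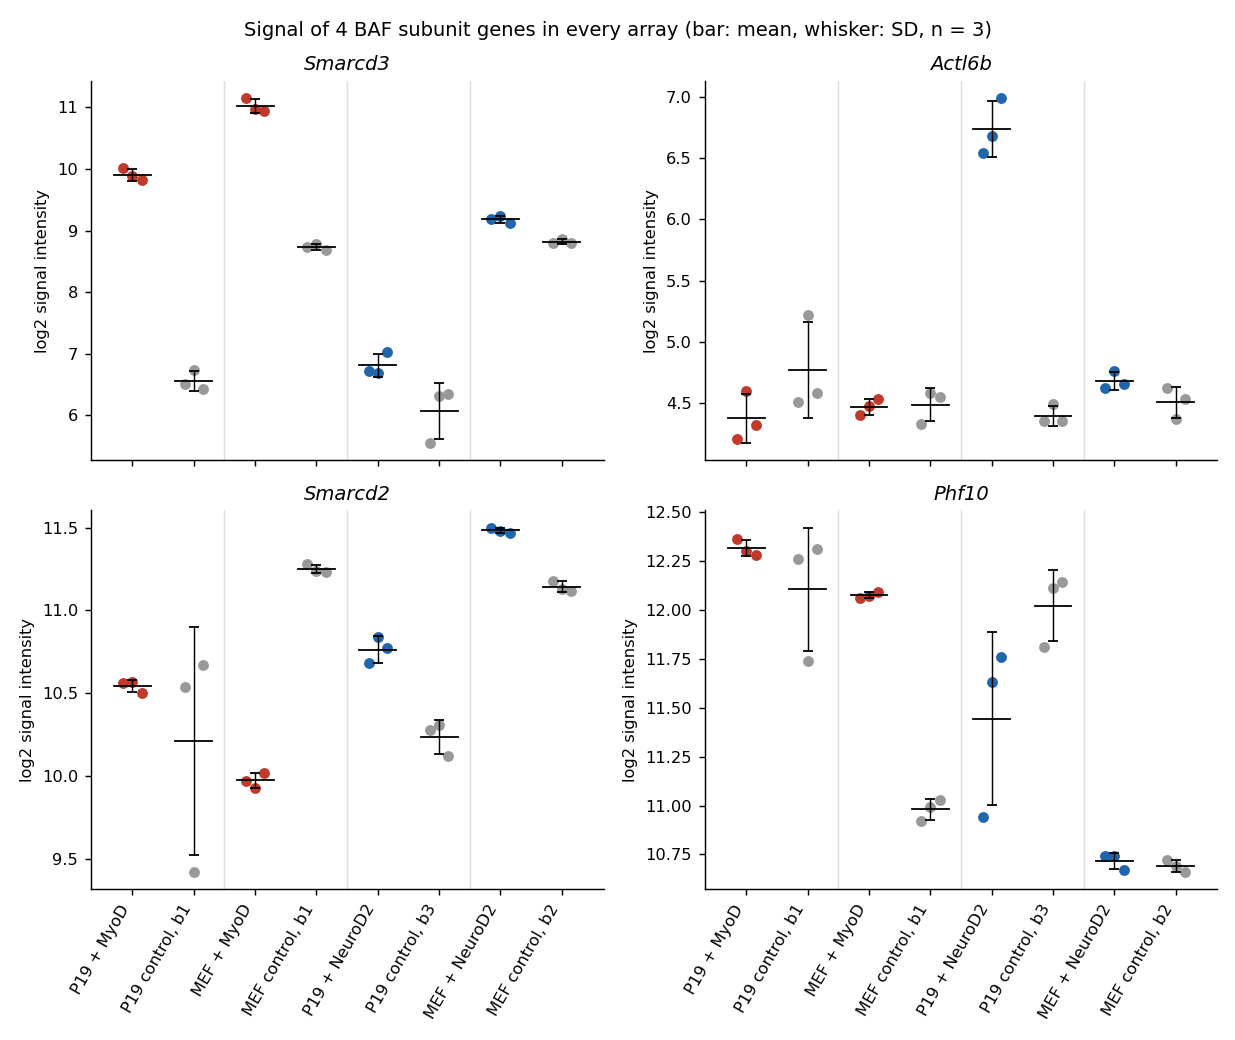
Log2 signal of Smarcd3, Actl6b, Smarcd2 and Phf10 (vertical axes, one scale per gene) in the 3 arrays of each of the 8 groups, with each transduced group left of its same-batch control (b1, b2 and b3 are batches). Points are arrays, bars are means and whiskers are SDs. Smarcd3 stands high in both MyoD groups, and Actl6b is above 6.5 only in P19 cells with NeuroD2.

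Actl6b, the neuronal form of the actin-related subunit (1422564_at), was raised in 1 of the 4 transduced groups. P19 cells with NeuroD2 had signals of 6.54, 6.68 and 6.99, against 4.35, 4.49 and 4.35 in the P19 controls of batch 3. The lowest transduced array was above the highest control by a wide margin. The rise was 2.34 ± 0.158, or 5.08-fold (limma, adjusted p = 1.2e-09). In MEFs with NeuroD2 Actl6b was 4.62, 4.76 and 4.66, against 4.62, 4.37 and 4.53 in the MEF controls of batch 2, and these groups overlapped. The difference was 0.17 (limma, adjusted p = 0.685). The effect of NeuroD2 was lower in MEFs than in P19 cells by 2.17 on the log2 scale, with a 95% interval of the signed difference from -2.64 to -1.71 (limma, adjusted p = 5.2e-07, in a contrast that called 10.2% of all genes). The 2 cell types were in different batches here, and the collection time of these MEFs is not given. The part of batch and time cannot be told apart from that of the cell type.

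With MyoD, Actl6b stayed at the low end of its range. It was 4.21, 4.60 and 4.32 in P19 cells with MyoD, against 4.51, 5.22 and 4.58 in their controls, and the highest of these 6 values came from the array that stood apart. The difference of -0.40 did not pass the test (limma, adjusted p = 0.137) and was -0.17 without that array. In MEFs with MyoD it was 4.40, 4.48 and 4.53, against 4.33, 4.58 and 4.55 in controls, a difference of -0.02. The effect of MyoD on Actl6b in P19 cells was below that of NeuroD2 by 2.74 (-2.74, limma adjusted p = 4.83e-08). Outside the P19 cells with NeuroD2, the other 7 groups of Actl6b had means of 4.38 to 4.77, and each overlapped its neighbour in the order of means.

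The other neuronal variants changed less or not detectably. Ss18l1, a coactivator that takes the place of Ss18 in neurons, gave 2 different readings from its 2 probe sets. The brighter one, 1447700_x_at, has an x in its name, the mark of probes that may also bind other transcripts, and it was not called with either factor in either cell type. The other, 1436911_at, was 7.61, 8.13 and 8.11 in P19 cells with NeuroD2, against 7.14, 7.09 and 6.91 in their controls. All 3 transduced arrays lay above the controls on this probe set. The rise was 0.90 ± 0.177, or 1.87-fold (limma over 34945 probe sets, adjusted p = 0.00194). On the brighter probe set the same comparison gave 6.95, 6.90 and 6.80 with NeuroD2, against 7.00, 6.96 and 6.75 in the controls, which overlapped. The array that stood apart read 9.40 on the brighter probe set, against 7.41 and 7.28 in the other P19 controls of batch 1, so the value of -0.78 for MyoD in P19 cells (limma, adjusted p = 0.149) was -0.10 without it.

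Dpf1 and Dpf3, neuronal relatives of Phf10 and Dpf2 that read histone marks through paired PHD fingers, were not called in any comparison of a factor with its control. Dpf1 means lay between 6.99 and 7.19 in the 4 P19 groups and between 5.67 and 5.98 in the 4 MEF groups, with factor differences of -0.21 with MyoD and -0.02 with NeuroD2 in P19 cells, and 0.19 with MyoD and -0.08 with NeuroD2 in MEFs. Dpf3, known also from heart and skeletal muscle, had group means from 7.73 to 8.00, and its differences ran from -0.27 with MyoD in P19 cells (-0.13 without the array that stood apart) to 0.11 with NeuroD2 in MEFs. The second probe set of Dpf3, 1450162_at, was dim. On it, P19 cells with NeuroD2 had 5.21, 5.44 and 5.35, against 5.50, 4.70 and 4.70 in controls, and 1 control exceeded all 3 transduced arrays. Of the 4 neuronal variants, 1 was therefore higher in P19 cells with NeuroD2 by gene, where 5.1% of all genes were higher. In the other 3 factor comparisons 0 of 4 were called. The shares of all genes called there were 2.71% with MyoD in P19 cells, 25.3% with MyoD in MEFs and 12.3% with NeuroD2 in MEFs. At an unadjusted p under 0.05 these comparisons held 3 with MyoD in P19 cells, all with negative differences (30.1% of all genes), 0 with MyoD in MEFs (32.2%) and 0 with NeuroD2 in MEFs (20.6%). The 3 were Actl6b, Dpf3 and Ss18l1, and with the deviating control array left out the count was 0 (13.8% of all genes).

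**Figure D2:**
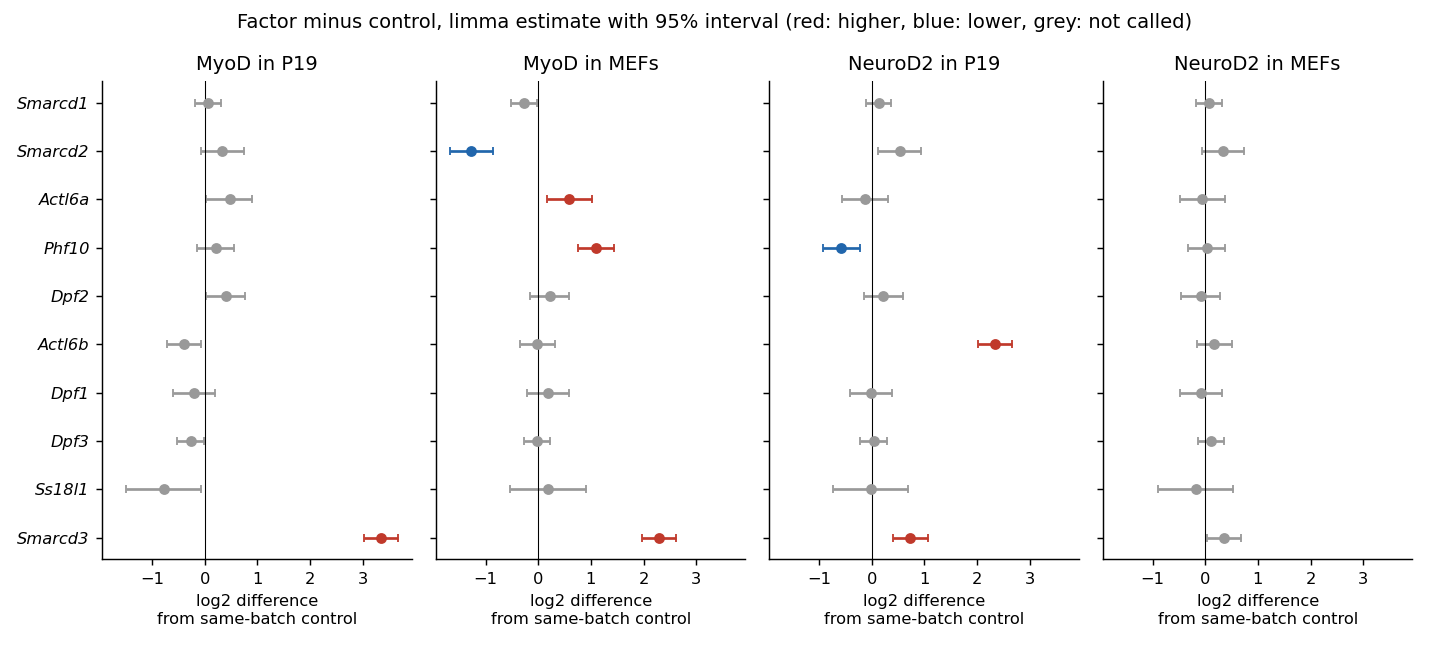
Log2 difference of each member from the untransduced control of the same batch (horizontal axis) for MyoD in P19 cells, MyoD in MEFs, NeuroD2 in P19 cells and NeuroD2 in MEFs, from left to right. Points are limma estimates and bars 95% intervals, with calls coloured. The largest differences are those of Smarcd3 with MyoD (3.34 in P19 cells and 2.29 in MEFs) and of Actl6b with NeuroD2 in P19 cells (2.34).

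Smarcd2 (1448400_a_at), a general variant of the position that Smarcd3 also fills, was lower in MEFs with MyoD. Its signal was 9.97, 9.93 and 10.02 in MEFs with MyoD, against 11.28, 11.24 and 11.23 in the MEF controls. The groups were well separated and each was tight. The difference was -1.28 ± 0.194, or 2.43-fold lower (limma, adjusted p = 2.55e-05), and a second probe set gave -1.06 ± 0.116 (limma, adjusted p = 3.83e-07). The remaining, dim probe set, 1426192_at, showed 0.00. In P19 cells with MyoD, Smarcd2 was 10.56, 10.57 and 10.50, against 10.54, 9.42 and 10.67 in controls, where the value of 9.42 was that of the array that stood apart. The groups overlapped and the difference of 0.33 was not called, nor was the -0.06 without that array. The effect of MyoD was 1.61 lower in MEFs than in P19 cells (-1.61, limma adjusted p = 0.000172).

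With NeuroD2, the Smarcd2 differences were positive. The signal was 10.68, 10.84 and 10.77 in P19 cells with NeuroD2, against 10.28, 10.31 and 10.12 in controls. In MEFs with NeuroD2 it was 11.50, 11.48 and 11.47, against 11.18, 11.13 and 11.12 in controls. The transduced arrays lay above their controls in both cell types, but the differences of 0.53 in P19 cells and 0.34 in MEFs did not pass over all genes (limma, adjusted p = 0.116 and 0.373). Both passed when the array that stood apart was left out of the fit, with an SE of 0.0641 in place of 0.194 (adjusted p = 3.36e-06 and 0.000348). The probe set 1448401_at was called in P19 cells with NeuroD2, at 0.39 (limma, adjusted p = 0.0455). MyoD and NeuroD2 differed by 1.62 in their effect on Smarcd2 in MEFs (-1.62 for MyoD minus NeuroD2, limma adjusted p = 0.000152).

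Phf10, which occupies the position of Dpf1, Dpf2 and Dpf3 in PBAF complexes and in progenitors, was higher in MEFs with MyoD. On its brighter probe set, 1449085_at, it was 12.06, 12.07 and 12.09 there, against 10.92, 10.99 and 11.03 in the MEF controls. The 3 transduced arrays agreed within 0.0119 (SD) and none overlapped a control. The rise was 1.09 ± 0.165, or 2.13-fold (limma, adjusted p = 2.41e-05). The second probe set, 1435774_at, had 9.93, 10.05 and 10.09 in MEFs with MyoD, against 7.11, 7.21 and 7.34 in controls, and rose by 2.81 ± 0.329 (limma, adjusted p = 1.05e-06). In P19 cells with MyoD the difference was 0.21 (limma, adjusted p = 0.35), and the effect in MEFs exceeded it by 0.88 (limma, adjusted p = 0.00878). On the brighter probe set, Phf10 in MEFs with MyoD lay close to the level of untransduced P19 cells. These averaged 12.11 ± 0.316 in batch 1 and 12.02 ± 0.183 in batch 3 (SD, n = 3 each). On 1435774_at, MEFs with MyoD averaged 10.03, above the P19 controls of batch 1 (8.54, at most 9.16) and batch 3 (9.07, at most 9.12).

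In P19 cells with NeuroD2, Phf10 was lower. The values were 10.94, 11.63 and 11.76, against 11.81, 12.11 and 12.14 in controls. The first transduced array was far below the other 2, although the groups did not overlap. The difference of -0.58 ± 0.165 (limma, adjusted p = 0.0323) became -0.33 without that first array (adjusted p = 0.206). It also lost its call without the second or the third control (adjusted p = 0.113 and 0.125) and as a mean of both probe sets (-0.39, adjusted p = 0.431). The second probe set was not called, at 8.28, 9.09 and 9.24 with NeuroD2, against 9.12, 9.03 and 9.06 in controls. In MEFs with NeuroD2 the difference was 0.03.

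Actl6a, the progenitor form of the actin-related subunit, was higher in MEFs with MyoD by a small margin. It was 9.33, 9.39 and 9.48, against 8.75, 8.84 and 8.83 in the MEF controls, and the groups did not overlap. The rise of 0.59 ± 0.208, or 1.51-fold, had a limma adjusted p of 0.0412, which lay between 0.0712 and 0.123 when any 1 of the 6 arrays was left out and was 0.0531 with the replicate number as a block. One of its other probe sets gave -0.22 and another 0.47, and neither was called. Without the array that stood apart the 0.47 was called (adjusted p = 6.39e-05) and the 0.59 had an adjusted p of 1.75e-05. In P19 cells with MyoD one of 3 probe sets was called, 1429883_at, at 8.63, 8.59 and 8.63 with MyoD, against 8.30, 7.84 and 7.97 in controls (0.58, limma adjusted p = 0.0101). Actl6a was not lower in P19 cells with NeuroD2, where it was 11.13, 10.88 and 10.80, against 11.20, 10.97 and 11.04 in controls (-0.13, limma adjusted p = 0.883). The groups overlapped, so in this group the signal for Actl6b was raised while that for Actl6a on its brightest probe set did not change detectably. The 95% interval of the difference on that probe set ran from -0.57 to 0.30. The probe set 1429883_at was 0.36 higher with NeuroD2, without overlap, and was not called (limma, adjusted p = 0.0823). It was called without the array that stood apart (limma, adjusted p = 0.0165). The third probe set, 1456730_x_at, gave -0.11 and was not called.

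Smarcd1 and Dpf2, both general subunits, were not called with either factor. Smarcd1 was 9.65, 9.64 and 9.62 in P19 cells with MyoD, against 9.68, 9.41 and 9.62 in controls, and 7.07, 6.91 and 6.84 in MEFs with MyoD, against 7.24, 7.19 and 7.20 in controls. The MEF groups did not overlap, yet their difference of -0.27 had a limma adjusted p of 0.104. With NeuroD2 the Smarcd1 differences were 0.13 in P19 cells and 0.07 in MEFs. Dpf2 differed by 0.40 with MyoD in P19 cells (0.05 without the array that stood apart), 0.22 with MyoD in MEFs, 0.22 with NeuroD2 in P19 cells and -0.09 with NeuroD2 in MEFs. Without that array in the fit, the MEF MyoD differences of Smarcd1 and Dpf2 were called (adjusted p = 0.0348 and 0.033), as was that of Dpf2 with NeuroD2 in P19 cells (0.0491).

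Counted over all 10 members, MyoD in P19 cells raised 1 and lowered 0, where 2.03% of all genes were raised and 0.676% lowered, 2.71% in all. The count was 5 without the first and 7 without the third P19 control of batch 1, against 33.6% and 43.2% of all genes, in fits where the array that stood apart made up one of the 2 controls left. It was 1 without that array, against 3.95%. MyoD in MEFs raised 3 and lowered 1, where 10.8% of all genes were raised and 14.5% lowered, 25.3% in all, and without the array that stood apart it raised 4 and lowered 2, against 40.6% of all genes. NeuroD2 in P19 cells raised 2 and lowered 1, where 5.1% of all genes were raised and 3.24% lowered, 8.34% in all, and 4 and 1 without that array, against 22.1%. NeuroD2 in MEFs raised 0 and lowered 0 by limma, where 6.41% of all genes were raised and 5.94% lowered, 12.3% in all. At an unadjusted p under 0.05 there was 1 member, Smarcd3, against 20.6% of all genes. Without the array that stood apart 1 was called, Smarcd2, against 27.1% of all genes.

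The groups of a member did not overlap for 3 of 10 with MyoD in P19 cells, 7 with MyoD in MEFs, 4 with NeuroD2 in P19 cells and 2 with NeuroD2 in MEFs. Over all genes the shares were 22.7%, 57.1%, 26% and 43.9%. The median difference of the members was 0.14 with MyoD in P19 cells (0.04 over all genes), where it turned to -0.04 without the array that stood apart (-0.02 over all genes). It was 0.18 with MyoD in MEFs (0.00 over all genes), 0.08 with NeuroD2 in P19 cells (-0.05 over all genes) and 0.05 with NeuroD2 in MEFs (-0.02 over all genes). By probe set, 2 of 20 were higher and 0 lower with MyoD in P19 cells, against 2.47% of 34945 probe sets called. With MyoD in MEFs 4 were higher and 2 lower, against 23.2%. With NeuroD2 in P19 cells 4 were higher and 1 lower, against 7.34%, and with NeuroD2 in MEFs 0 were called by limma, against 11.4%, with 2 at an unadjusted p under 0.05. Without the array that stood apart these counts were 2 and 0 (3.14% of all probe sets called), 6 and 3 (37.6%), 7 and 1 (19.4%), and 2 and 0 (24.5%).

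**Figure D3:**
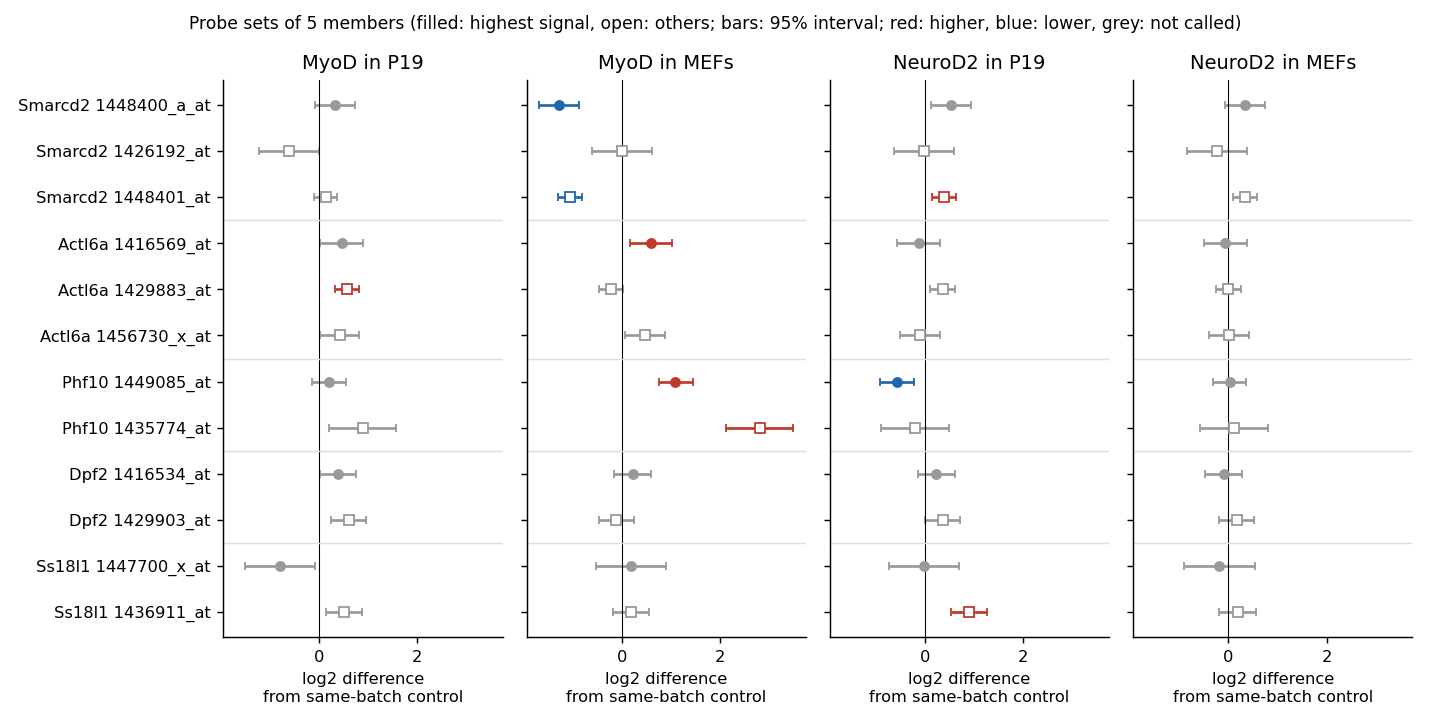
Log2 difference from the same-batch control (horizontal axis) for every probe set of the 5 members Smarcd2, Actl6a, Phf10, Dpf2 and Ss18l1, with MyoD in P19 cells and in MEFs and NeuroD2 in P19 cells and in MEFs from left to right. Filled points are the brightest probe set of a gene, open squares the others, bars 95% intervals. Both probe sets of Phf10 are higher in MEFs with MyoD (1.09 and 2.81), while those of Ss18l1 part in P19 cells with NeuroD2 (-0.02 and 0.90).

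The starting cells differed widely in these subunits. Untransduced MEFs had more signal than untransduced P19 cells of batch 1 for Smarcd3 and Smarcd2, and less for Smarcd1, Actl6a, Phf10, Dpf1 and Ss18l1, which is 2 of 10 higher and 5 lower, where 24.8% of all genes were higher and 26.9% lower, 51.7% in all. Smarcd1 showed the largest difference of the 10 as read from the brightest probe sets: 7.24, 7.19 and 7.20 in MEFs, against 9.68, 9.41 and 9.62 in P19 cells. The MEF arrays lay far below the P19 arrays, with a difference of -2.36 ± 0.117, or 5.14-fold lower (limma, adjusted p = 4.64e-13). Its second, dim probe set, 1420240_at, showed -0.04 and was not called, and the mean of both gave -1.20, a smaller size than that of Smarcd3. Of the other variants that can fill its position, Smarcd3 was 2.17 higher and Smarcd2 was 1.04 ± 0.194 higher in MEFs (limma, adjusted p = 0.000119 for Smarcd2). Actl6a was lower by 1.23 ± 0.208 in MEFs (-1.23, limma adjusted p = 3.9e-05), although its probe set 1429883_at was 0.38 higher. Phf10 was lower by 1.13 ± 0.165 in MEFs (-1.13, limma adjusted p = 6.8e-06).

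Dpf1, a neuronal variant, was also lower in the untransduced MEFs. It had 6.01, 5.43 and 5.57, against 7.16, 7.13 and 7.29 in the P19 controls, without overlap. The difference was -1.52 ± 0.191, or 2.88-fold lower (limma, adjusted p = 8.72e-07). The second, dimmer probe set of Dpf1, 1420529_at, averaged 5.43 in MEFs and 5.79 in P19 cells. On it the difference without the array that stood apart was -0.16 and was not called (limma, adjusted p = 0.24). Ss18l1 was lower on its brighter probe set (-0.87, limma adjusted p = 0.0391) and higher on the other (0.60, adjusted p = 0.00788). With the deviating P19 array left out the first of these was -0.19 and not called, and the second was 0.37 (adjusted p = 0.0465). Without it Dpf2 was called lower in MEFs on its brighter probe set (-0.25, limma adjusted p = 0.0225, against 0.10 and not called with it). The other probe set of Dpf2, 1429903_at, was then called higher in MEFs (0.45, limma adjusted p = 0.00412). The remaining calls held, with Smarcd2 at 0.65 and Actl6a at -1.64. Actl6b and Dpf3 were called neither with nor without the deviating array. The median member differed by -0.58 between MEFs and P19 cells, against -0.12 over all genes, and by -0.22 without the array that stood apart, against -0.05 over all genes. The groups did not overlap for 7 members, against 51.6% of all genes. By probe set 6 of 20 were higher and 8 lower in MEFs, where 48.7% of all probe sets were called, and 6 and 7 when the deviating P19 array was left out, against 52.3%.

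**Figure D4:**
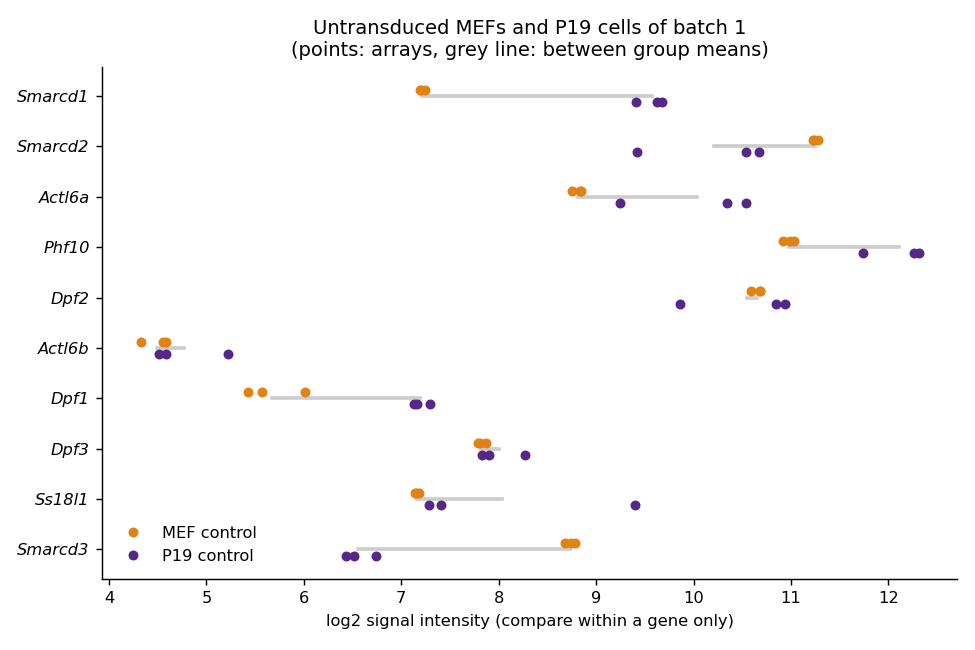
Log2 signal (horizontal axis) of the 10 members in untransduced MEFs, drawn above, and untransduced P19 cells of batch 1, drawn below. Points are the 3 arrays of each group and grey lines join the group means, to be compared within a gene only. Smarcd1 lies at 7.19 to 7.24 in MEFs and at 9.41 to 9.68 in P19 cells, and Smarcd3 the other way round. For Smarcd2, Actl6a, Dpf2 and Ss18l1 one P19 array lies away from the other 2.

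Control cells of the same kind were also compared between batches. MEF controls of batch 2 and batch 1 differed in 0 of 10 members by limma, where 2.28% of all genes were called. None had an unadjusted p under 0.05 (11.5% of all genes), while the groups of 4 members did not overlap (39.9% of all genes). Without the array that stood apart 0 members and 16.3% of all genes were called, and with only the compared arrays in the fit 1 member and 17.3%. P19 controls of batch 3 had higher Smarcd1 (0.54) and Actl6a (1.03) and lower Smarcd3 (-0.49) and Ss18l1 (-1.13) than those of batch 1, which is 2 of 10 higher and 2 lower, where 10.6% of all genes were higher and 3.48% lower, 14.1% in all. The groups of 5 members did not overlap, against 21.6% of all genes. All 4 calls were lost with only the compared arrays in the fit (0.0055% of all genes called) and with the replicate number as a block (1.86%). Leaving out the array that stood apart ended the calls of Smarcd3 (-0.40) and Ss18l1 (-0.44), lowered Actl6a to 0.63 and added Smarcd2 (-0.37), with 17.4% of all genes called. That Smarcd2 value is from 1448400_a_at, while its probe set 1448401_at was then called higher (0.29, limma adjusted p = 0.0155). Leaving out the first control of batch 3 left 2 calls, with 9.17% of all genes called. Set against the P19 controls of batch 3 instead of its own batch, MyoD in P19 cells would have Smarcd1 lower (-0.47, limma adjusted p = 0.00957).

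Among the other 21 subunits of the BAF, PBAF and ncBAF complexes, all measured, 0 were called with MyoD in P19 cells, 2 were higher and 2 lower with MyoD in MEFs, 2 were higher with NeuroD2 in P19 cells, and 2 were higher and 1 lower with NeuroD2 in MEFs. The shares called over all genes were 2.71%, 25.3%, 8.34% and 12.3% in that order. Without the array that stood apart the counts were 5 higher and 6 lower with MyoD in MEFs (40.6% of all genes called), 7 and 1 with NeuroD2 in P19 cells (22.1%) and 4 and 2 with NeuroD2 in MEFs (27.1%). With MyoD in P19 cells their median difference was 0.41, against 0.04 over all genes, and 14 had an unadjusted limma p under 0.05 (30.1% of all genes). Both were smaller without the array that stood apart, as was the share over all genes. The median was then 0.10, against -0.02 over all genes, 6 had an unadjusted p under 0.05 (13.8% of all genes) and 0 were called (3.95%). In P19 cells with MyoD, 2 of the 4 probe sets of Bcl11b, a zinc-finger subunit of neural and T cell complexes, were higher by 0.50 and 0.44, and the second of these was not called without that array (0.39, limma adjusted p = 0.0811). In MEFs with MyoD Bcl7a, a small accessory subunit, rose by 1.17 ± 0.226 and Brd7, a bromodomain subunit of PBAF, by 0.97 ± 0.156. In the same cells Smarca2, one of the 2 alternative ATPases, fell by 1.85 ± 0.365 and Bcl11b fell by 1.20 ± 0.315 (limma, adjusted p = 0.000421, 5.26e-05, 0.00049 and 0.00626 in the order named). Smarca2 was 7.68 to 7.80 in MEFs with MyoD, against 9.44 to 9.73 in controls, and its second, dimmer probe set was not called (-0.68). The 4 probe sets of Bcl11b were all lower.

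NeuroD2 raised Bcl7a in both cell types, by 0.77 ± 0.226 in P19 cells and by 1.78 ± 0.226 in MEFs (limma, adjusted p = 0.0363 and 6.3e-06), and the call in P19 cells was lost under 8 of 17 other settings. In P19 cells with NeuroD2, Smarcc2, a scaffold subunit, rose by 1.13 ± 0.211 (8.33 to 8.80, against 7.23 to 7.78 in controls, limma adjusted p = 0.00106). In MEFs with NeuroD2, Bcl11b fell by 1.69 ± 0.315 on its brightest probe set and was lower on the other 3 as well, and Ss18, which Ss18l1 replaces in neurons, rose by 0.41 (limma, adjusted p = 0.000584 and 0.0492), a call lost under 10 of 17 other settings. Ss18 was not called in P19 cells with NeuroD2 (-0.15, limma adjusted p = 0.703), though it was called lower without the array that stood apart (adjusted p = 0.0437). With MyoD it was not called in P19 cells (0.25, and 0.00 without that array) or MEFs (-0.03). Smarca4, the other ATPase, was called with neither factor, at 0.28 and 0.14 with MyoD in P19 cells and MEFs and 0.31 and 0.21 with NeuroD2. Without that array it was 0.09 with MyoD in P19 cells, and its 0.31 with NeuroD2 there was called (limma, adjusted p = 0.00881). Between untransduced MEFs and P19 cells 6 of the 21 were higher and 7 lower, where 51.7% of all genes were called, and with the deviating control array left out 5 were higher and 11 lower, against 55.4%. Smarca2 was 2.27 higher in MEFs on its brighter probe set (1.53 without that array), Smarca4 was lower by 0.47 (-0.47, and -0.66 without it) and Ss18 by 0.33 (-0.33, and -0.58 without it). Among the largest of these differences, chosen after the values were seen, were those of Smarcc2 (3.10, and 2.74 without the array) and Arid1a (-2.40, and -2.63 without it). Bcl11b belonged to them as well, at 2.57 on its brightest probe set (1.94 without the array), and its 4 probe sets were all higher in MEFs.

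Rest, a repressor of neuronal genes in cells that are not neurons, was lower in P19 cells with NeuroD2, the group in which Actl6b was raised. It averaged 9.85 there, against 10.68 in controls, a difference of -0.82 ± 0.161 (limma, adjusted p = 0.00157). It was not called in MEFs with NeuroD2 (-0.21, limma adjusted p = 0.595) or with MyoD in P19 cells (0.32, and 0.03 without the array that stood apart) or MEFs (0.13). Over the 24 arrays, the genes most like Smarcd3 in their pattern were Rnf217, Tuba4a and Prkg1, with Pearson's r of 0.949, 0.931 and 0.924. Those most like Actl6b were Uncx, Slc17a6 and Scg3, with r of 0.978, 0.973 and 0.971. The candidates were 10021 genes for Smarcd3 and 10022 for Actl6b, the arrays share groups and batches, and the second set of correlations follows the step between P19 cells with NeuroD2 and all other groups. Uncx, for example, averaged 9.33 ± 0.303 in P19 cells with NeuroD2 and 4.28 to 4.51 in the other 7 groups (SD, n = 3).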

How the data were processed

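The authors deposited 1 column of log2 signal per array. How background, scaling and probe summary were handled is not stated by the sources at hand, and the submitters' processing notes name only limma, with no version. Of 45101 probe sets, 64 controls, 9160 without a symbol and 932 with several were set aside. The other 34945 gave 18193 genes, each read from its probe set with the highest mean. With limma 3.58.1 (R 4.3.3), 1 mean per group was estimated from the 24 arrays together, leaving 16 residual and 3.89 prior degrees of freedom. Tests were two-sided, with Benjamini-Hochberg adjustment over all genes and a threshold of 0.05. The remaining probe sets were read from a like fit over all 34945. Each factor was compared with same-batch untransduced controls, and differences of effects were tested as contrasts of contrasts. The fit was tested on simulated data. Arrays give no read depth, and 3 arrays per group limit the precision.

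All 10 members are named over the comparisons of a factor with its control and of MEF with P19 controls, and the called ones in the other contrasts. Of the 21 other subunits, up to 4 called ones with the largest difference per factor comparison are named, with Smarca4, Smarca2 and Ss18 throughout, besides Myod1, Neurod2, Rest and the 3 genes most correlated with Smarcd3 and with Actl6b. Members and lists were chosen with earlier results of these data known.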

Additional observations from a re-analysis of the deposited data

Results flagged for a closer look

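The tests of a difference between effects passed for 4 members. The effect of MyoD differed between MEFs and P19 cells for Smarcd2 (-1.61, MEF effect minus P19 effect on the log2 scale, limma adjusted p = 0.000172), Smarcd3 (-1.05, 0.0013) and Phf10 (0.88, 0.00878), where 21.1% of all genes differed. Medium and harvest time differed between these cell types as well, and their part in the differences cannot be told apart from that of the cell type. The effect of NeuroD2 differed between MEFs and P19 cells for Actl6b (-2.17, adjusted p = 5.2e-07), where 10.2% of all genes differed. These MEFs and P19 cells were in different batches, each with its own controls, and the collection time of the MEFs is not given. The Neurod2 probe set that rose by 1.70 in P19 cells was at -0.06 in MEFs. The part of batch, time and transgene level cannot be told apart from that of the cell type.

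Between the factors, the effect of MyoD minus that of NeuroD2 in P19 cells was -2.74 for Actl6b and 2.61 for Smarcd3 (limma, adjusted p = 4.83e-08 and 6.93e-08), where 5.53% of all genes differed. In MEFs it was -1.62 for Smarcd2, 1.07 for Phf10 and 1.93 for Smarcd3 (adjusted p = 0.000152, 0.00192 and 9.33e-07), where 18.8% of all genes differed. The factors were run in different batches, each against its own controls, so batch and factor cannot be told apart in these contrasts beyond what the controls remove. Leaving out the P19 control array that stood apart kept these 9 calls and added 6: Actl6a (0.53) for MyoD in MEFs minus P19 cells, Phf10 (0.60) and Dpf2 (-0.31) for NeuroD2 in MEFs minus P19 cells, Smarcd2 (-0.59) for MyoD minus NeuroD2 in P19 cells, and Actl6a (0.65) and Dpf2 (0.31) for MyoD minus NeuroD2 in MEFs. The shares of all genes called were then 30.6%, 24.8%, 11% and 35.7%, in the order in which these 4 contrasts are named.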

How the results depend on the processing

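Smarcd3 kept its MyoD calls under 18 of 18 other settings in P19 cells (3.28 to 3.84) and 17 of 17 in MEFs (2.23 to 2.33). Actl6b kept its NeuroD2 call in P19 cells under 16 of 16 (2.22 to 2.44), and was left out by the filter on dim genes. Smarcd2 and Phf10 kept their MyoD calls in MEFs under 17 of 17 each. Counts of called members moved more, and the percentage in brackets is the share of all genes called in the same fit. With MyoD in P19 cells the count of 1 (2.71%) became 3 (37.5%) with array weights, whose estimation did not fully converge, and 2 (11.4%) against the P19 controls of batch 3, and ran from 1 to 7 (1.31% to 43.2%) when single arrays were left out. With MyoD in MEFs the count of 4 (25.3%) became 7 (50.1%) with only the compared arrays in the fit, and ran from 3 to 6 (20.7% to 40.6%) with single arrays left out. With NeuroD2 in P19 cells the count of 3 (8.34%) became 5 (8.14%) without probe sets marked as open to several transcripts and 6 (32.9%) with array weights, and ran from 2 to 5 (5.62% to 22.1%). With NeuroD2 in MEFs the count of 0 (12.3%) became 1 (18.1%) after quantile normalization, 2 (29.1%) with only the compared arrays and 4 (45.3%) with array weights, and ran from 0 to 1 (9.43% to 27.1%). Between MEF and P19 controls the count of 7 (51.7%) became 5 (27.9%) with only the compared arrays and 8 (77.1%) with array weights. It ran from 6 to 8 (45.1% to 61.5%) when single arrays were left out. Between P19 controls of batch 3 and batch 1 the count of 4 (14.1%) became 2 (16.7%) after quantile normalization, 2 (14.3%) with the mean of all probe sets and 0 (0.0055%) with only the compared arrays, and ran from 2 to 6 (8.66% to 41.8%). It was also 0 (1.18%) with only those arrays and without the array that stood apart, a setting chosen after seeing the data. Between MEF controls of batch 2 and batch 1 the count of 0 (2.28%) became 1 (17.3%) with only the compared arrays and 4 (37.8%) with array weights, and stayed at 0 (1.02% to 16.3%) when single arrays were left out.

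Replicate numbers showed no clear pairing of the samples, though 3 arrays per group could miss a weak one. Same-numbered arrays of a factor and its control correlated in their deviations by -0.19 to 0.34 over the batch 1 P19 pairs. These pairs include the array that stood apart. In the other factor comparisons the correlations ran from 0.01 to 0.17. No comparison had every array closest to its own number. With the number as a replicate block the counts with MyoD were 1 in P19 cells (2.11% of all genes called) and 3 in MEFs (24%). With NeuroD2 they were 3 in P19 cells (7.6%) and 0 in MEFs (11.5%). The count was 7 between MEF and P19 controls (49.6%), 0 between P19 control batches (1.86%) and 0 between MEF control batches (0.835%).

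Some directions turned. Smarcd1 with MyoD in P19 cells was -0.47 against the batch 3 controls. Ss18l1 with NeuroD2 in P19 cells was 0.44 as a mean of probe sets, and without the marked probe sets it was 0.90, with 0.60 between MEF and P19 controls and 0.37 between P19 batches. That setting also gave Ss18 0.08 between MEF and P19 controls. Dpf2 between MEF and P19 controls was -0.29 with array weights and -0.25 without the array that stood apart, in either fit, and ran from -0.25 to 0.29 with single arrays left out. Smarcd2 between P19 batches was -0.31 with array weights and -0.37 without that array, and ran from -0.37 to 0.26 with single arrays left out. Array weights also gave Dpf2 -0.16 between P19 batches, 0.20 for the MyoD effect in MEFs minus P19 cells and -0.35 for MyoD minus NeuroD2 in P19 cells. Apart from the change of probe set, the cause was not tested. Signals near the floor are compressed, which limits Actl6b and the dim probe sets.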
